A study of Homo sapiens with 27 samples.

Results

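Metallothioneins are small, cysteine-rich proteins that bind zinc and copper, and they also bind platinum and cadmium through their thiol groups. Their genes form a cluster on human chromosome 16 and are switched on by the zinc-sensing transcription factor MTF1 at short promoter elements called metal response elements, and MT2A is also a classical glucocorticoid-responsive gene. In the intestinal epithelium they buffer zinc and copper taken up from the diet, and they have long been studied as possible traps for platinum drugs in cancer cells.

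The 7 metallothionein genes described here are MT2A, MT1E, MT1X, MT1F, MT1G, MT1H and MT1M, taken by symbol from the 26255 gene symbols in each library's table. Of these 7 genes, 4 (MT2A, MT1E, MT1X and MT1F) reached 1 TPM, a share of all transcripts corrected for length, in all 27 libraries. MT1G was listed above 0 in 2 libraries, at 1.55 TPM in replicate 2 of SW480 OX res and 0.60 TPM in replicate 1 of DLD-1 WT, and MT1H and MT1M were listed at 0 in every library. An entry of 0 in these tables cannot be read as absence, because the histone gene H3F3A, which dividing cells use throughout, was also listed at 0 in 4 libraries while reaching 35.6 TPM elsewhere.

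mRNA was measured by RNA-seq in 3 established human colorectal cancer (CRC) lines, HCT116, SW480 and DLD-1, each as OX res cells, 5-FU res cells and WT cells, with 3 libraries in each of the 9 groups. OX res cells had been cultured with oxaliplatin (OX), a platinum drug that crosslinks DNA, at 5 to 35 µM. 5-FU res cells had been cultured with fluorouracil (5-FU), a pyrimidine analogue that blocks thymidylate synthesis, at 5 to 70 µM. Both exposures lasted about 6 months, and WT cells are the untreated parental cells. The drug concentration was raised step by step during selection according to the study's methods, which describe HCT116 and SW480 and not DLD-1. Whether each resistant population is a clone or a pool, and whether drug was present at harvest, is not given in the sources used here. No source says if the 3 libraries per group are separate cultures, and the p-values then reflect library-to-library spread, possibly technical, and nothing more. In bulk libraries, fewer cells with an mRNA and less of that mRNA per cell cannot be told apart. The DLD-1 libraries carry library names from another number range than those of the other lines, so line and library set cannot be told apart in comparisons with DLD-1.

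The values are FPKM, fragments scaled by transcript length and library size, divided by each library's sum to give TPM, a level per transcript length that can be compared between genes. The number of reads per library is not known, so the precision comes from the spread between libraries alone, and the correlation of log2(TPM + 1) between libraries of a group was 0.991 to 0.995. Summed TPM of 9 colorectal epithelial markers, among them EPCAM and KRT8, ran from 5703 to 20963. In each group 6 or 7 of the 9 were at 1 TPM or more. CDX1 was at 0 in every library of HCT116, SW480 OX res and SW480 WT, and VIL1 in those of HCT116 OX res and HCT116 WT. The 5 leukocyte markers summed to at most 12.8, 6 fibroblast markers to at most 17.8 and 4 endothelial markers to at most 2.09 TPM. A gene was called when its Benjamini-Hochberg adjusted p in limma was under 0.05 and its log2 fold change of TPM + 1 was beyond 1, and "rose" and "fell" are used for called genes alone. The summed FPKM of a library ran from 451767 to 502356 in HCT116 OX res, against 701434 to 720744 in HCT116 WT, and the median gene was not at 0 in several comparisons. Its log2 fold change was 0.60 in HCT116 OX res, 0.18 in HCT116 5-FU res, 0.36 in SW480 OX res, 0.44 in SW480 5-FU res, 0.13 in DLD-1 OX res and -0.03 in DLD-1 5-FU res against WT cells of the line. Fold changes relative to the median gene are therefore also given.

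The 7 genes lie within 75613 bases of chromosome 16 (GRCh37, the build called hg19). MT2A is at chr16:56642496-56643409, MT1E at chr16:56659387-56661024, MT1M at chr16:56666571-56667893, MT1F at chr16:56691643-56694610, MT1G at chr16:56700642-56701977, MT1H at chr16:56703726-56705041 and MT1X at chr16:56716382-56718108. MT1G is on the minus strand and the others are on the plus strand. Each has 3 exons and a coding sequence of 61 codons, of which 20 encode cysteine, the residue that holds the metal. Between any 2 of the 7 coding sequences, 88.5% to 95.1% of the bases were identical. The coding sequences of the 4 expressed genes are shown because this likeness bears on how reads can be assigned, with the cysteine codons in capitals and the rest in lower case.
MT2A: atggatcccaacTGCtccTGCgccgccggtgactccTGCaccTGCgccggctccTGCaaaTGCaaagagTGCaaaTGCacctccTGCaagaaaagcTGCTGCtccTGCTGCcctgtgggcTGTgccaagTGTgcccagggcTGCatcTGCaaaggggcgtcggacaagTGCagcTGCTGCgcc
MT1E: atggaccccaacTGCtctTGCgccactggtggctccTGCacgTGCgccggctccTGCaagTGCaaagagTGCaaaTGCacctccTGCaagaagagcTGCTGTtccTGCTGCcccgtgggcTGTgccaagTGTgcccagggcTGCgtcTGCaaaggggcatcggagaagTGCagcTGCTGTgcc
MT1X: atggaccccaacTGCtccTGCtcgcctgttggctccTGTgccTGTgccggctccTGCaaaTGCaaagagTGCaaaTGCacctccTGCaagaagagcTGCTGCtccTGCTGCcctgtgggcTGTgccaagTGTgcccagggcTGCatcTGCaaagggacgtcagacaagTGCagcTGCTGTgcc
MT1F: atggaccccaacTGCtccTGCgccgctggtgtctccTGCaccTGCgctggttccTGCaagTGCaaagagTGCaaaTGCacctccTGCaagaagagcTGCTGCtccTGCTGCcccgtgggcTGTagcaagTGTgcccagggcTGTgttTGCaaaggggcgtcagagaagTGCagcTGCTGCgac
Of all 100-base windows of the MT2A transcript, 18.5% came within 2 mismatches of another metallothionein transcript, and the share was 13.4% for MT1X, 4.0% for MT1E and 0.0% for MT1F. None of these windows was identical in another transcript. A part of the MT2A and MT1X reads could therefore have been shared with a relative during counting, while MT1F and most of MT1E are distinct in sequence.

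The promoters of MT2A, MT1X and MT1H, which RefSeq gives for build GRCh38.p14, show the metal response element that the family shares. The 250 bases before each start are printed 5′ to 3′, with every match to the element's core, TGCACNC or TGCGCNC on either strand, in capitals. The windows are chr16:56608334-56608583 for MT2A, chr16:56682220-56682469 for MT1X and chr16:56669564-56669813 for MT1H, all on the plus strand.
MT2A: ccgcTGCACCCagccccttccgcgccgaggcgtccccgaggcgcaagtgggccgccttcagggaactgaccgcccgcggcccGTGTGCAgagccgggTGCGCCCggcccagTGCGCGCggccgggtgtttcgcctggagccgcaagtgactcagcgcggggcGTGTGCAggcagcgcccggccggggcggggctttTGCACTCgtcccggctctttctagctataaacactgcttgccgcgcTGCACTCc
MT1X: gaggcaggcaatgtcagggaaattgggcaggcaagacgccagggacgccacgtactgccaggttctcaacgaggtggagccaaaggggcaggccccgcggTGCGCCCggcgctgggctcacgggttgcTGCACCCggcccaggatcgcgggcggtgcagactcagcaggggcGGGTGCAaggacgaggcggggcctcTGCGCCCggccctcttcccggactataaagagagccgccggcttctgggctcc
MT1H: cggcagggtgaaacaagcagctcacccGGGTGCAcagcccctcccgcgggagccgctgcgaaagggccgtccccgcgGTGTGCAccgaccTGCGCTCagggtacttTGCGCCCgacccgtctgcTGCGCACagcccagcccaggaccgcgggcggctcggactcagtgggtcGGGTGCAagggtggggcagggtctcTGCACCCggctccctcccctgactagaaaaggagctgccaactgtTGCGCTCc
The core occurred 7 times in MT2A, 4 times in MT1X and 8 times in MT1H. Of 35116 promoters of the same length, 24.8% held at least 1 match, and as many or more matches occurred in 0.031% of promoters for the number in MT2A, 0.37% for MT1X and 0.017% for MT1H. A match is a description of the letters and not a bound site.

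MT2A was the most abundant metallothionein mRNA in all 9 groups and held 48.4% ± 0.61 (DLD-1 WT) to 77.4% ± 0.60 (HCT116 OX res) of the summed TPM of the 7 genes (SD, n = 3). MT1E followed with 15.8% ± 0.18 (SW480 5-FU res) to 37.7% ± 0.27 (DLD-1 WT), then MT1X, and MT1F was by far the least abundant of the 4. Together the 7 genes made up 0.442% ± 0.037 of all TPM in HCT116 5-FU res at the top and 0.0941% ± 0.0019 in DLD-1 WT at the bottom. By group mean, MT2A ranked between 39th (SW480 OX res) and 254th (DLD-1 WT) among all genes, and MT1F between 2835th (SW480 WT) and 9840th (HCT116 OX res). The map of the cluster gives the mean level of each family member in WT cells at its place on the chromosome.

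**Figure D1:**
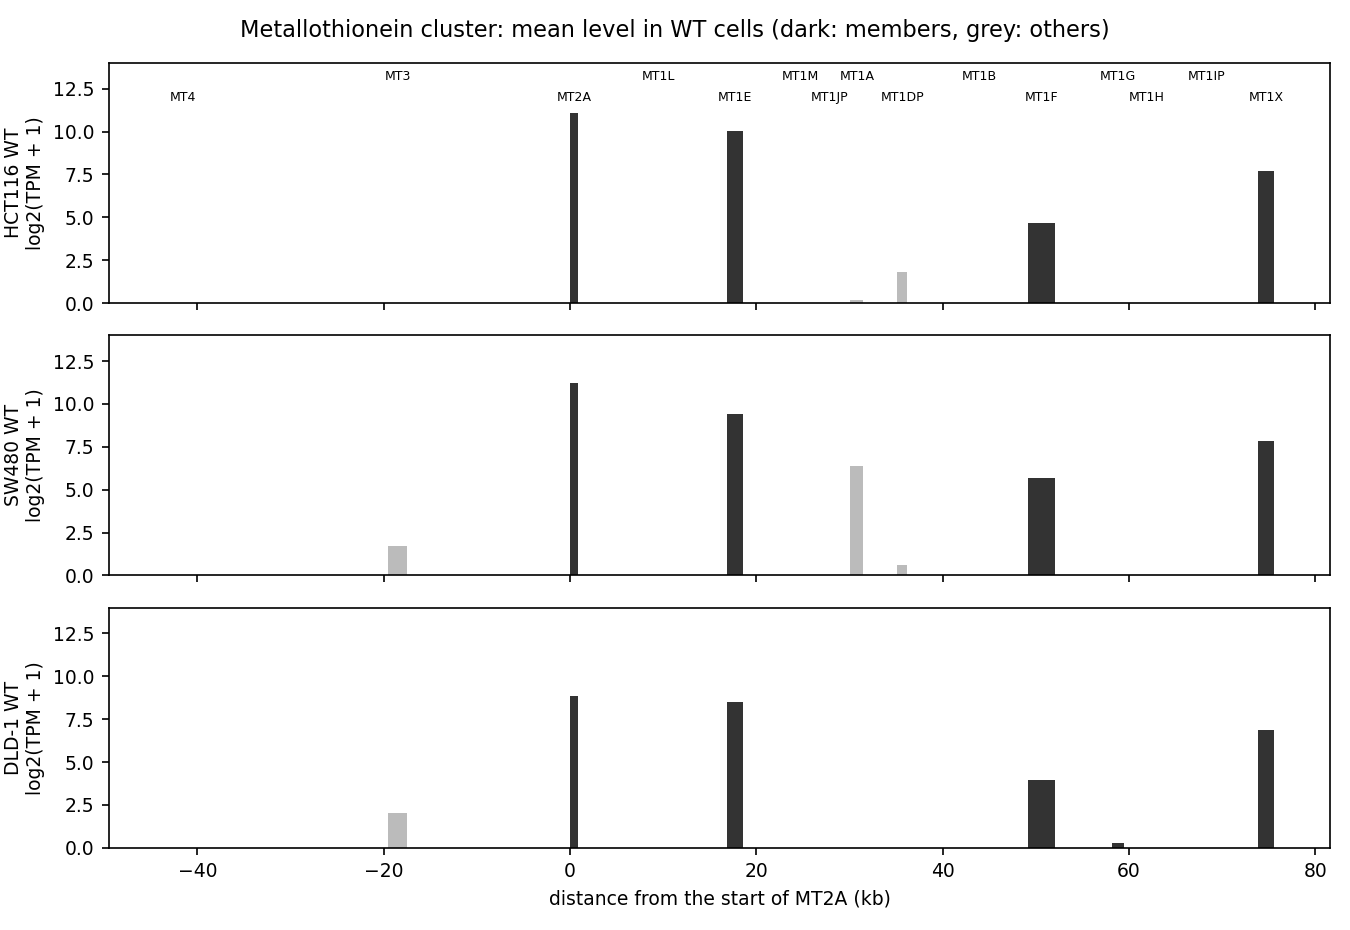
Mean level of each metallothionein gene of the chromosome 16 cluster in WT cells, drawn at its distance in kb from the start of MT2A, with log2(TPM + 1) on the vertical axis and n = 3 libraries per line. Dark bars are the 7 genes described here and grey bars the other family members, and MT1A in SW480, with a mean of 83.2 TPM, is the tallest grey bar.

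In HCT116, OX res cells had the lowest mean of all 4 expressed genes, and 5-FU res cells had the most MT2A. MT2A had 1506, 1452 and 1474 TPM in the 3 OX res libraries and 3625, 3375 and 2994 TPM in the 5-FU res libraries, against 2243, 2195 and 2118 TPM in the WT libraries. The 3 groups did not overlap, with the 5-FU res libraries highest and the OX res libraries lowest. MT1E had 317, 314 and 287 TPM in OX res and 968, 912 and 873 TPM in 5-FU res, against 1058, 1048 and 1032 TPM in WT. Every OX res library was thus far below every other HCT116 library, while 5-FU res lay just under WT.

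MT1X had 115, 113 and 120 TPM in HCT116 OX res and 160, 154 and 160 TPM in 5-FU res, against 220, 219 and 194 TPM in WT. These groups did not overlap either, with the order OX res, 5-FU res and WT going up. MT1F, a minor isoform of the same fold, had 12.9, 7.27 and 6.26 TPM in OX res and 22.0, 18.2 and 9.99 TPM in 5-FU res, against 22.1, 24.5 and 26.0 TPM in WT. In replicate 3 of 5-FU res it lay inside the range of the OX res libraries, so those 2 groups overlapped.

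Against WT, 2 of the 4 tested metallothioneins fell in HCT116 OX res and none rose, where 4.83% of 14010 genes tested were called lower and 28.5% higher. MT1E fell by a log2 fold change of -1.77 ± 0.05 (SE, limma, adjusted p = 3e-11), or -2.37 relative to the median gene. MT1F fell by -1.42 ± 0.26 (adjusted p = 2.8e-04). MT1X was lower by -0.85 ± 0.05 (adjusted p = 1.8e-08) and MT2A by -0.56 ± 0.06 (adjusted p = 2.5e-06), both short of the fold threshold in TPM. With median-of-ratios scaling both passed it, at -1.51 for MT1X and -1.23 for MT2A, whereas quantile normalization turned MT2A to 0.09 with an adjusted p of 0.34. The median of the 4 genes was -1.14, against 0.60 over all genes tested. The summed level of the 6 fibroblast markers was 15.4 to 17.8 TPM in these OX res libraries and 6.15 to 6.95 TPM in the 5-FU res libraries, against 6.26 to 7.0 TPM in WT, with 1 of the 6 at 1 TPM or more in each group and COL1A2 and DCN at 0 throughout. Their part in the result was not tested.

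In HCT116 5-FU res against WT, none of the 4 tested genes was called by limma, although 3 had an unadjusted p under 0.05, and 15.4% of all genes were called in either direction (11.6% higher and 3.82% lower). MT2A was higher by 0.60 ± 0.06 (SE, limma, adjusted p = 2.5e-06), MT1X lower by -0.41 ± 0.05 (adjusted p = 2.1e-05) and MT1E lower by -0.19 ± 0.05 (adjusted p = 0.0045). MT1E turned to 0.05 with quantile normalization and to 0.03 with the transcript length trend removed. MT1F had -0.57 ± 0.26 (adjusted p = 0.067), with -0.79 without the first 5-FU res library (adjusted p = 0.017) and -0.26 without the third (adjusted p = 0.31). Between the resistant groups of HCT116, MT1E fell in OX res by -1.58 ± 0.05 relative to 5-FU res (limma, adjusted p = 7.2e-11) and MT2A by -1.17 ± 0.06 (adjusted p = 4.7e-09). These were 2 of 4 tested genes, where 5.19% of all genes were called lower, and MT2A dropped below the fold threshold with quantile normalization, at -0.47.

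**Figure D2:**
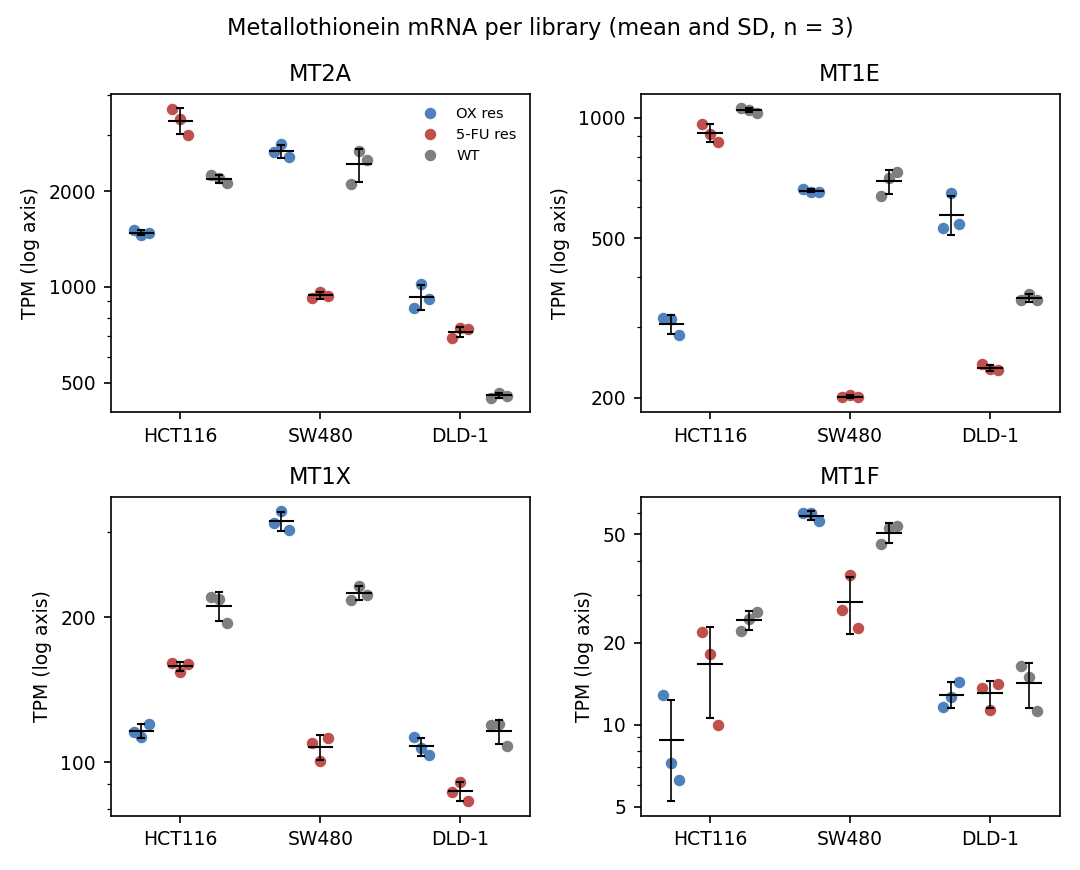
TPM of MT2A, MT1E, MT1X and MT1F in each of the 27 libraries on log axes, with OX res, 5-FU res and WT from left to right within each line, and horizontal lines and bars for the mean and SD (n = 3). The 5-FU res group is the highest of HCT116 for MT2A and the lowest of SW480 for all 4 genes.

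SW480 showed the opposite order of the drugs: the 4 expressed genes were lowest in the 5-FU res cells, and OX res cells lay near WT cells. MT2A had 2651, 2808 and 2558 TPM in SW480 OX res and 919, 963 and 935 TPM in 5-FU res, against 2107, 2671 and 2502 TPM in WT. OX res and WT overlapped, and every 5-FU res library was below both. MT1E had 664, 655 and 653 TPM in OX res and 200.2, 203 and 201 TPM in 5-FU res, against 639, 708 and 734 TPM in WT, with the same arrangement. The 5-FU res libraries of MT1E were close to each other, at 201 ± 1.33 TPM (SD, n = 3).

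MT1X had 314, 331 and 303 TPM in SW480 OX res and 109.8, 100.4 and 112 TPM in 5-FU res, against 218, 232 and 223 TPM in WT. All 3 groups were apart, and OX res was the highest MT1X group of the series. MT1F had 59.7, 59.8 and 56.1 TPM in OX res and 26.3, 35.5 and 22.6 TPM in 5-FU res, against 45.9, 52.9 and 53.5 TPM in WT. Here too every OX res library was above every WT library, though by a small margin.

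Against WT, 3 of the 4 tested genes fell in SW480 5-FU res, where 2.85% of 14039 genes were called lower and 18.3% higher. MT1E fell by -1.78 ± 0.05 (SE, limma, adjusted p = 4.8e-10), MT2A by -1.36 ± 0.07 (adjusted p = 4.8e-08) and MT1X by -1.06 ± 0.05 (adjusted p = 3.6e-08). Relative to the median gene these values were -2.22, -1.81 and -1.5. MT1F had -0.85 ± 0.13 (adjusted p = 1.5e-04) and passed the fold threshold with median-of-ratios scaling (-1.35) or without the second 5-FU res library (-1.02), while MT2A came to -0.90 with quantile normalization. The median of the 4 genes was -1.21, against 0.44 over all genes tested. The summed level of the 5 leukocyte markers was 11.6 to 12.8 TPM in these 5-FU res libraries, against 3.01 to 3.75 TPM in SW480 WT, with 2 of the 5 at 1 TPM or more in each group and PTPRC at 0 in WT. The 6 fibroblast markers summed to 4.94 to 5.45 TPM in 5-FU res, with 2 of them at 1 TPM or more, against 1.01 to 1.46 TPM in WT, with 1 of them there and COL1A2, COL3A1, DCN and LUM at 0. Their part in the result was not tested.

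In SW480 OX res against WT, none of the 4 tested genes was called by limma, and 1 had an unadjusted p under 0.05, where 15.0% of all genes were called in either direction (13.7% higher and 1.22% lower). That gene was MT1X, at 0.49 ± 0.05 (SE, limma, adjusted p = 1.8e-05), which was 0.13 relative to the median gene. MT2A had 0.15 ± 0.07 (adjusted p = 0.099), MT1F 0.20 ± 0.13 (adjusted p = 0.19) and MT1E -0.08 ± 0.05 (adjusted p = 0.19). With median-of-ratios scaling MT2A and MT1F turned to -0.30 and -0.24. Leaving out 1 library moved MT2A between 0.05 (without the first WT library) and 0.22 (without the second, adjusted p = 0.014), MT1E between -0.13 (without the first WT library, adjusted p = 0.010) and -0.03 (without the third), and MT1F between 0.13 (without the first) and 0.24. Leukocyte markers summed to 7.18 to 9.30 TPM in these OX res libraries, against 3.01 to 3.75 TPM in WT, with 2 of 5 at 1 TPM or more and PTPRC at 0 in both groups, and their part in the result was not tested. Between the resistant groups of SW480, all 4 tested genes rose in OX res relative to 5-FU res, by 1.70 ± 0.05 for MT1E, 1.55 ± 0.05 for MT1X, 1.51 ± 0.07 for MT2A and 1.05 ± 0.13 for MT1F (limma, highest adjusted p = 5e-05), where 4.61% of all genes were called higher. The median gene moved by -0.04 in that comparison, and the call on MT1F was lost without the third 5-FU res library (0.92).

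DLD-1 WT cells had the least MT2A of all 9 groups, and both resistant populations had more of it. MT2A had 855, 1017 and 915 TPM in DLD-1 OX res and 691, 740 and 735 TPM in 5-FU res, against 449, 464 and 455 TPM in WT. The 3 groups did not overlap. MT1E, in contrast, was highest in OX res and lowest in 5-FU res, with 531, 648 and 542 TPM in OX res and 242, 235 and 234 TPM in 5-FU res, against 350, 364 and 352 TPM in WT. The second OX res library was the highest of its group for both genes.

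MT1X had 113, 107 and 104 TPM in DLD-1 OX res and 87.0, 91.0 and 83.1 TPM in 5-FU res, against 119, 120.4 and 108 TPM in WT. OX res and WT overlapped, and the 5-FU res libraries were below both. MT1F had 11.6, 12.7 and 14.4 TPM in OX res and 13.7, 11.4 and 14.1 TPM in 5-FU res, against 16.5, 15.0 and 11.2 TPM in WT. All 3 groups of MT1F overlapped.

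Against WT, MT2A rose in DLD-1 OX res by 1.02 ± 0.06 (SE, limma, adjusted p = 6.5e-08), as 1 of the 4 tested genes, where 2.70% of 13467 genes were called higher and 0.913% lower. This value sat at the fold threshold and came to 0.88 with median-of-ratios scaling and 0.96 without the second OX res library, with an adjusted p of at most 7e-06 in any alternative. The 9 epithelial markers summed to 19397 to 20963 TPM in these OX res libraries, against 9599 to 9938 TPM in DLD-1 WT, with 7 of the 9 at 1 TPM or more in both groups. The 4 endothelial markers summed to 1.55 to 2.09 TPM in OX res, with 1 of them at 1 TPM or more and PECAM1 and KDR at 0, against 0.249 to 0.317 TPM in WT, with none there and KDR at 0. The part of these markers in the result was not tested. MT1E was higher by 0.68 ± 0.06 (adjusted p = 4.8e-06), while MT1X had -0.10 ± 0.06 (adjusted p = 0.15) and MT1F -0.12 ± 0.13 (adjusted p = 0.48). In DLD-1 5-FU res none of the 4 was called by limma, 3 had an unadjusted p under 0.05, and 3.88% of all genes were called in either direction (2.12% higher and 1.76% lower). There MT2A was higher by 0.66 ± 0.06 (adjusted p = 2.2e-06), whereas MT1E was lower by -0.58 ± 0.06 (adjusted p = 1.7e-05) and MT1X by -0.41 ± 0.06 (adjusted p = 8.3e-05), and MT1F had -0.11 ± 0.13 (adjusted p = 0.54). MT1E rose in OX res relative to 5-FU res by 1.26 ± 0.06 (adjusted p = 9.9e-09), as 1 of 4 tested genes where 5.97% of all genes were called higher.

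**Figure D3:**
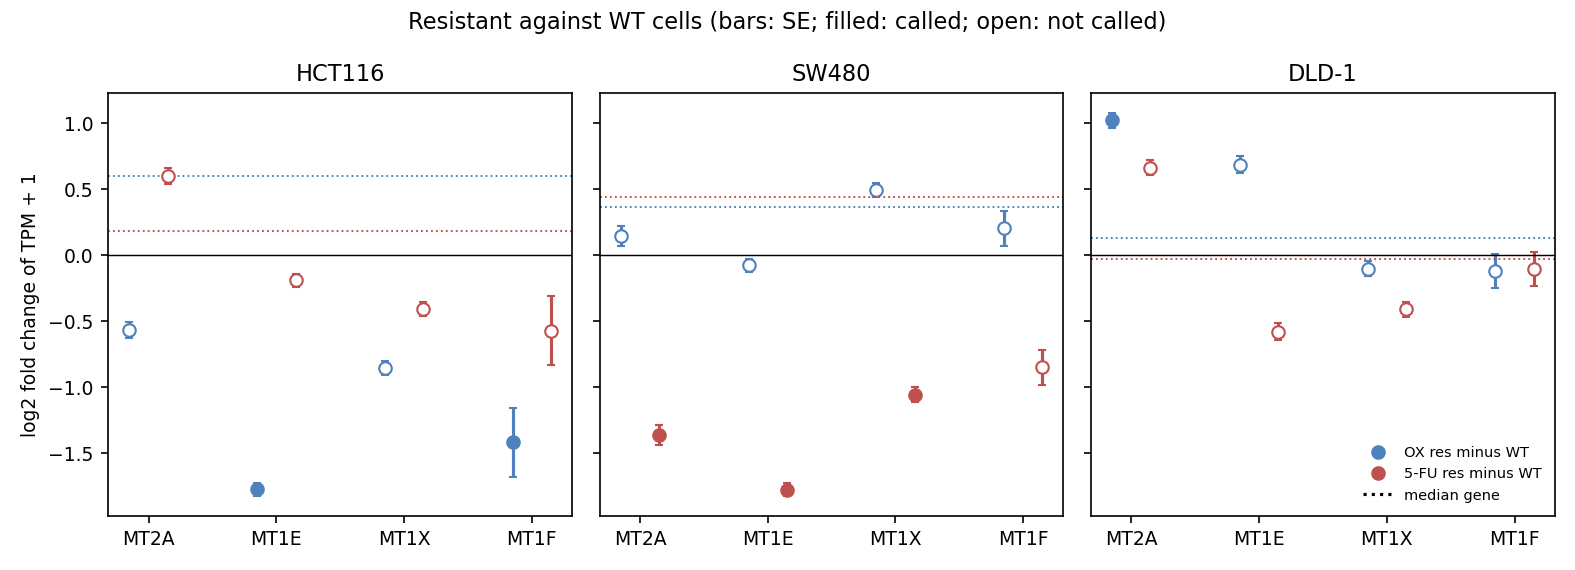
log2 fold change of TPM + 1 against WT cells of the line for MT2A, MT1E, MT1X and MT1F (points) with SE from limma (bars), OX res in blue and 5-FU res in red, and dotted lines at the median of all genes tested. Filled points were called. The called points are MT1E and MT1F in HCT116 OX res, MT2A, MT1E and MT1X in SW480 5-FU res, and MT2A in DLD-1 OX res.

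Whether a drug's contrast with WT differed between lines was tested as an interaction over all 27 libraries. For OX res against WT, HCT116 was lower than DLD-1 by -2.46 ± 0.08 for MT1E (SE, limma, adjusted p = 4.6e-17), by -1.59 ± 0.10 for MT2A (-0.92 with quantile normalization) and by -1.30 ± 0.31 for MT1F. These were 3 of 4 tested genes, where 6.58% of 15801 genes were called lower. HCT116 was also lower than SW480 in that contrast, by -1.70 ± 0.08 for MT1E, -1.62 ± 0.31 for MT1F and -1.35 ± 0.08 for MT1X (highest adjusted p = 1.1e-04), again 3 of 4 genes, where 7.13% of all genes were called lower. For 5-FU res against WT, SW480 was lower than DLD-1 by -2.02 ± 0.10 for MT2A and -1.20 ± 0.08 for MT1E, 2 of 4 genes where 3.50% of all genes were called lower. HCT116 was higher than SW480 by 1.97 ± 0.10 for MT2A and 1.59 ± 0.08 for MT1E, 2 of 4 genes where 5.56% of all genes were called higher. None of the 4 genes was called between HCT116 and DLD-1 for 5-FU (1 with an unadjusted p under 0.05, background 18.5% in either direction). That gene was MT1E, at 0.39 ± 0.08 (limma, adjusted p = 2.9e-04). None was called between SW480 and DLD-1 for OX either (3 with an unadjusted p under 0.05, background 14.4%). These 3 also had an adjusted p under 0.05 and stayed short of the fold threshold alone. They were MT2A at -0.88 ± 0.10, MT1E at -0.76 ± 0.08 and MT1X at 0.60 ± 0.08 (limma, highest adjusted p = 9.8e-07).

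Among WT cells, MT2A was higher by 2.26 ± 0.07 in HCT116 and by 2.40 ± 0.07 in SW480 than in DLD-1 (SE, limma, adjusted p = 1.9e-18 and 5e-19). MT1E was higher in HCT116 than in DLD-1 by 1.56 ± 0.06 (adjusted p = 5.7e-17), and MT1F was higher in SW480 than in DLD-1 by 1.78 ± 0.22 (adjusted p = 1.3e-07). Each of these comparisons called 2 of the 4 genes, where 9.68% of all genes were called higher in HCT116 and 10.9% in SW480 than in DLD-1. Between HCT116 and SW480, MT1F alone was called, lower in HCT116 by -1.04 ± 0.22 (adjusted p = 2.1e-04), where 12.6% of all genes were called lower, and this call was lost without the first HCT116 WT library (-0.98), with quantile normalization (-0.89) and with the length trend removed (-0.93). MT2A differed between HCT116 WT and SW480 WT by -0.14 ± 0.07 (adjusted p = 0.072).

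Over the 9 groups, the summed TPM of the 7 genes ran from 4424 ± 371 in HCT116 5-FU res through 3705 ± 143 in SW480 OX res, 3466 ± 88.0 in HCT116 WT, 3395 ± 343 in SW480 WT, 1908 ± 37.0 in HCT116 OX res, 1624 ± 144 in DLD-1 OX res, 1276 ± 23.4 for SW480 5-FU res and 1060 ± 22.7 for DLD-1 5-FU res down to 941 ± 19.2 in DLD-1 WT (SD, n = 3). Of these neighbours, HCT116 WT and SW480 WT overlapped and all others were apart. SW480 OX res (3571 to 3855 TPM) and SW480 WT (3010 to 3664 TPM), which were not neighbours in this order, overlapped as well. For MT2A alone, SW480 OX res and SW480 WT, SW480 WT and HCT116 WT, and SW480 5-FU res and DLD-1 OX res were neighbours that overlapped. The order of MT1E was led by HCT116 WT and closed by SW480 5-FU res, and among its neighbours the ranges of SW480 WT and SW480 OX res alone overlapped. For MT1X the 4 groups between 107 and 116 TPM (HCT116 OX res, DLD-1 WT, DLD-1 OX res and SW480 5-FU res) each overlapped the next, and SW480 WT overlapped HCT116 WT. For MT1F every group from HCT116 5-FU res downward overlapped the next, and SW480 5-FU res overlapped HCT116 WT.

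The balance between the isoforms differed between resistant and WT cells in each line. A ratio of 2 genes within 1 library does not depend on the factor by which that library is scaled. The ratio of MT2A to MT1E was 4.75, 4.62 and 5.14 in HCT116 OX res and 3.74, 3.70 and 3.43 in HCT116 5-FU res, against 2.12, 2.09 and 2.05 in HCT116 WT. In DLD-1 it was 1.61, 1.57 and 1.69 in OX res and 2.85, 3.15 and 3.14 in 5-FU res, against 1.28, 1.28 and 1.29 in WT. In both lines every resistant library lay above every WT library, by mean ratios of 2.32-fold (HCT116 OX res), 1.74-fold (HCT116 5-FU res), 1.26-fold (DLD-1 OX res) and 2.37-fold (DLD-1 5-FU res).

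In SW480 the ratio was 4.0, 4.29 and 3.92 in OX res and 4.59, 4.75 and 4.66 in 5-FU res, against 3.30, 3.77 and 3.41 in WT. The groups were again apart, with mean ratios 1.16-fold (OX res) and 1.34-fold (5-FU res) those of WT. MT2A thus held a larger share relative to MT1E in all 6 resistant groups than in WT cells of the line. The 2 genes were both lower in HCT116 OX res and SW480 5-FU res and both higher in DLD-1 OX res. They lay on opposite sides of WT in HCT116 5-FU res and DLD-1 5-FU res. In SW480 OX res each gene overlapped WT, and the ratio was apart by a small margin (lowest 3.92, against a highest of 3.77 in WT). No p was computed for this ratio, and 3 against 3 libraries cannot go below 0.1 in a 2-sided exact permutation test. How often ratios of other gene pairs lay apart from WT was not computed. The ratio of MT1X to MT1E, which shares its denominator with the first, was apart from WT in all 6 resistant groups, higher in 4 and lower in 2. Its means were 0.381 ± 0.033 for HCT116 OX res and 0.173 ± 0.0094 for HCT116 5-FU res, against 0.202 ± 0.012 in HCT116 WT. In SW480 they were 0.481 ± 0.022 in OX res and 0.534 ± 0.034 in 5-FU res, against 0.324 ± 0.019 in WT. In DLD-1 they were 0.190 ± 0.024 in DLD-1 OX res and 0.367 ± 0.018 in DLD-1 5-FU res, against 0.327 ± 0.017 in DLD-1 WT.

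**Figure D4:**
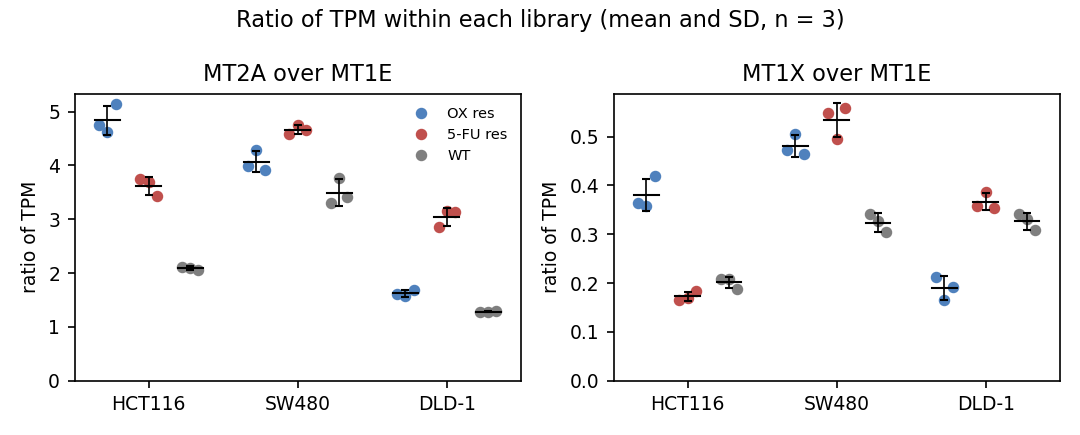
Ratio of MT2A to MT1E and of MT1X to MT1E within each of the 27 libraries, with OX res, 5-FU res and WT from left to right within each line, and horizontal lines and bars for the mean and SD (n = 3). The MT2A to MT1E ratio of the 3 WT libraries is the lowest of each line, at 2.05 to 2.12 in HCT116, 3.30 to 3.77 in SW480 and 1.28 to 1.29 in DLD-1.

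The 4 genes went together in SW480 and less so elsewhere. Over the 9 SW480 libraries, Pearson's r of log2(TPM + 1) between pairs of these genes was 0.92 to 0.99. It was 0.50 to 0.91 over the 9 HCT116 libraries and -0.38 to 0.64 over the 9 DLD-1 libraries, where MT2A and MT1X had the lowest value. These libraries form 3 groups per line and share a scaling, so the values describe the pattern and are not tested. After subtracting line means, the 5 genes most like the summed 7 genes over 27 libraries, among 14252 genes with a mean of 1 TPM or more, were GYLTL1B (r = 0.963), FLJ23867 (0.939), CRABP2 (0.928), MPZL2 (0.919) and POLR3G (0.907). GYLTL1B, a glycosyltransferase of dystroglycan, had 25.8 ± 1.29 TPM in HCT116 OX res and 88.0 ± 2.19 TPM in HCT116 5-FU res, against 56.6 ± 2.40 TPM in HCT116 WT. Within 1 line the leading gene was HKR1 in HCT116 (r = 0.996), CDC20 in SW480 (0.996) and LRP8 in DLD-1 (0.997), each over 9 libraries.

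The files held 9 other metallothionein genes or pseudogenes, of which 4 were listed at 0 in every library. MT1A, which lies between MT1E and MT1F, was seen above 1 TPM in SW480 alone. It had 47.6, 41.4 and 25.2 TPM in SW480 OX res and 21.5, 21.8 and 19.9 TPM in SW480 5-FU res, against 70.7, 84.4 and 94.5 TPM in SW480 WT, and it was listed at 0 in 17 of the 18 libraries of the other lines. MT1A fell in both, by -1.15 ± 0.19 in OX res and by -1.92 ± 0.19 in 5-FU res (SE, limma, adjusted p = 2.9e-04 and 4.8e-06), with -0.88 for OX res in the alternative nearest to 0. MT3, known as the growth inhibitory metallothionein of brain, was listed at 0 in all 9 HCT116 libraries. It had 8.82, 11.1 and 10.2 TPM in SW480 OX res and 5.22, 3.90 and 5.91 TPM in SW480 5-FU res, against 1.57, 2.85 and 2.58 TPM in SW480 WT. MT3 thus rose in SW480 OX res by 1.75 ± 0.18 (adjusted p = 9.2e-06), opposite in direction to MT1A, and fell in DLD-1 5-FU res by -1.02 ± 0.17 (adjusted p = 3.8e-04), with 0.72, 1.61 and 0.80 TPM there against 3.42, 3.27 and 2.60 TPM in DLD-1 WT. The pseudogene MT1DP fell in HCT116 OX res by -1.22 ± 0.35 (adjusted p = 0.0064) at 0, 0.85 and 0.93 TPM, against 2.37, 2.78 and 2.56 TPM in WT. By alternative, the fold change of MT3 in DLD-1 5-FU res ran from -1.56 to -0.75 and that of MT1DP from -2.53 to -0.91.

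**Figure D5:**
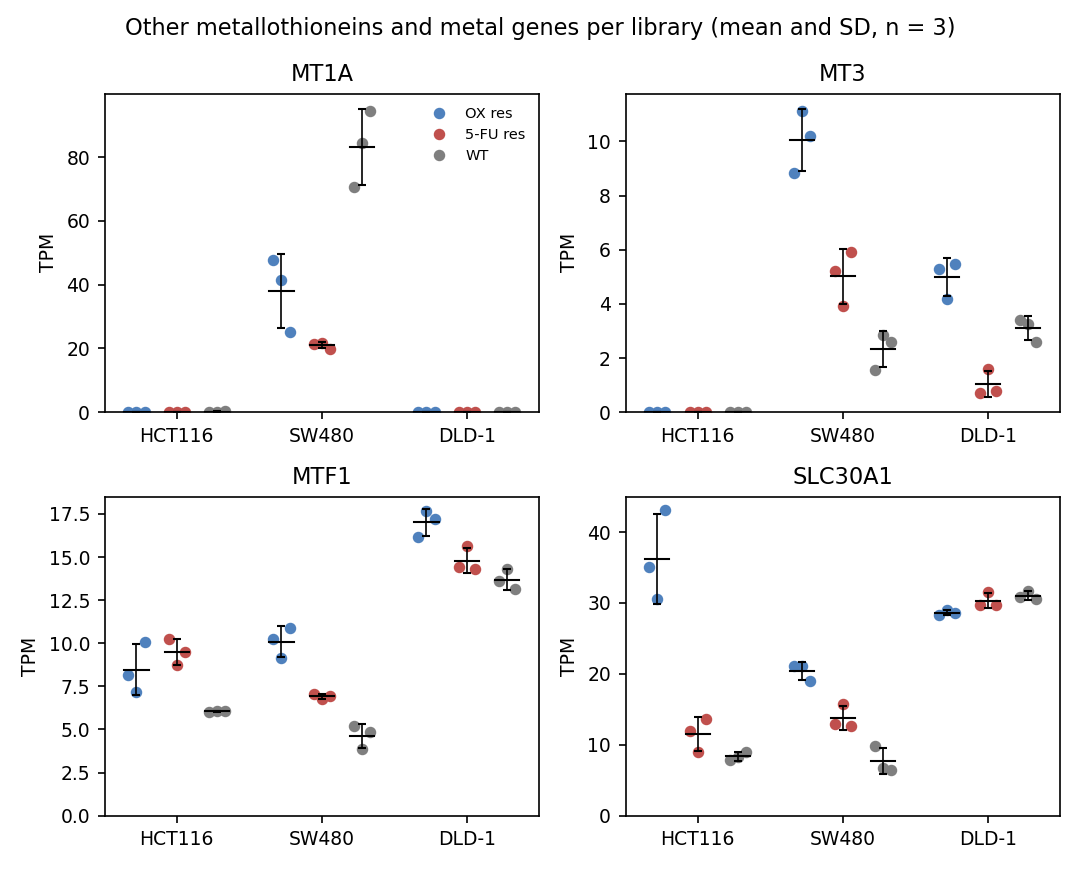
TPM of MT1A, MT3, the zinc sensor MTF1 and the zinc exporter SLC30A1 in each library, with OX res, 5-FU res and WT from left to right within each line, and horizontal lines and bars for the mean and SD (n = 3). MT1A appears in SW480 libraries and MT3 in SW480 and DLD-1 libraries, and SLC30A1 reaches 30.5 to 43.1 TPM in HCT116 OX res, against 7.78 to 9.0 TPM in HCT116 WT.

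MTF1, the zinc finger factor that activates metallothionein genes when zinc rises, had mean levels of 8.47 ± 1.46 TPM in HCT116 OX res and 9.49 ± 0.76 TPM in HCT116 5-FU res, against 6.05 ± 0.02 TPM in HCT116 WT. It was not called in any of the 6 comparisons with WT, and its log2 fold change ran from 0.10 (DLD-1 5-FU res) to 0.98 (SW480 OX res), with a lowest value in any alternative of -0.42 in HCT116 OX res and -0.12 in both HCT116 5-FU res and SW480 5-FU res. SLC30A1, the zinc exporter of the plasma membrane and another MTF1 target, had 35.0, 30.5 and 43.1 TPM in HCT116 OX res, against 7.78, 8.32 and 9.0 TPM in WT. It rose there by 1.98 ± 0.14 (SE, limma, adjusted p = 7.5e-08), in the same libraries in which MT1E fell. In SW480 OX res SLC30A1 had 21.1, 21.2 and 19.0 TPM, against 9.76, 6.69 and 6.50 TPM in WT, and rose by 1.33 ± 0.14 (adjusted p = 1.4e-05), though with 0.67 in the alternative that gave the least. In DLD-1 it was at 28.6 ± 0.37 TPM in OX res and 30.3 ± 1.04 TPM in 5-FU res, against 31.0 ± 0.59 TPM in WT.

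Of the 11 genes for metal sensing and zinc export, 3 of 8 tested rose in HCT116 OX res, 2 of 9 in SW480 OX res, and 1 of 9 in SW480 5-FU res and 1 of 8 in DLD-1 5-FU res, and none fell in any of the 6 comparisons with WT. Of all genes, 28.5% rose in HCT116 OX res, 13.7% in SW480 OX res, 18.3% for SW480 5-FU res and 2.12% in DLD-1 5-FU res. In the remaining comparisons none was called by limma, with 7 genes in HCT116 5-FU res and 4 in DLD-1 OX res at an unadjusted p under 0.05. At an adjusted p under 0.05 there were 7 and 3. The median of the list was 0.85 in HCT116 OX res and 0.87 for SW480 OX res, against 0.60 and 0.36 over all genes tested there. It was 0.46 in HCT116 5-FU res (0.18 over all genes tested) and 0.50 in SW480 5-FU res (0.44). In DLD-1 it was 0.13 in OX res (0.13) and -0.03 in 5-FU res (-0.03). Besides SLC30A1, SLC30A4, which loads zinc into vesicles, rose in HCT116 OX res by 1.13 (adjusted p = 6.2e-05). SLC30A3, a vesicular zinc transporter of neurons, rose in SW480 OX res by 1.01 and in SW480 5-FU res by 1.35 (adjusted p = 2.4e-05 and 1.7e-06). SLC30A10, chiefly a manganese exporter, rose in DLD-1 5-FU res by 1.76 (adjusted p = 3.7e-06), with 4.0, 3.86 and 2.67 TPM, against 0.37, 0.19 and 0.40 TPM in WT. The calls on SLC30A3 and SLC30A4 were each lost in at least 1 alternative.

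Of the 14 zinc importer genes, 11 were tested in each line. In HCT116, 2 rose and 1 fell in OX res and 1 rose in 5-FU res. In SW480, 2 rose in OX res and 3 rose in 5-FU res. In DLD-1 none was called by limma in OX res or 5-FU res (7 and 6 with an unadjusted p under 0.05). An adjusted p under 0.05 was reached there by 7 and 5. Over all genes 28.5% rose and 4.83% fell in HCT116 OX res, and 11.6% rose in HCT116 5-FU res, 13.7% in SW480 OX res and 18.3% for SW480 5-FU res, so that the importers' counts lay near these shares. SLC39A4, the importer through which the gut takes up dietary zinc, fell in HCT116 OX res by -1.34 ± 0.07 (adjusted p = 3.9e-09), with 53.8, 58.9 and 61.9 TPM, against 162, 141 and 144 TPM in WT. SLC39A8, which imports zinc, manganese and cadmium, rose in SW480 OX res by 2.03 ± 0.11 and in SW480 5-FU res by 1.41 ± 0.11 (adjusted p = 9.5e-08 and 5.4e-07), the second value falling to 0.91 in the alternative that gave the least. The metallothioneins of those 2 groups stood apart from each other, with MT2A at 2672 ± 126 TPM in SW480 OX res and 939 ± 22.0 TPM in SW480 5-FU res. SLC39A10 rose in both resistant groups of HCT116 and SW480, by 1.09 to 1.34, and SLC39A13 in HCT116 OX res and SW480 5-FU res, by 1.22 and 1.04, and each of these calls was lost in at least 1 alternative.

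Of 9 genes for copper handling, all were tested, and 1 rose in SW480 OX res and 3 rose and 1 fell in SW480 5-FU res, where 13.7% of all genes rose in the OX res group and 18.3% rose and 2.85% fell in the 5-FU res group. No other comparison with WT called one by limma. At an unadjusted p under 0.05 were 9 genes in HCT116 OX res, 8 in HCT116 5-FU res, 6 in DLD-1 OX res and 5 in DLD-1 5-FU res. At an adjusted p under 0.05 these numbers were 9, 7, 6 and 4. ATP7A, the copper pump of the secretory pathway, rose in SW480 OX res by 1.60 ± 0.12 and in SW480 5-FU res by 1.55 ± 0.12. COX17, the chaperone that hands copper to cytochrome oxidase, fell in SW480 5-FU res by -1.45 ± 0.09 (adjusted p = 1.1e-07) alongside the metallothioneins, with 90.9, 93.1 and 104 TPM, against 230, 285 and 278 TPM in WT. The copper importer SLC31A1 rose there by 1.02 and SLC31A2 by 1.47. The calls on ATP7A, SLC31A1 and SLC31A2 were lost in at least 1 alternative.

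NR3C1, the glucocorticoid receptor, was nearly unlisted in DLD-1, at up to 0.077 TPM in any of its 9 libraries. In HCT116 it had 18.3, 18.8 and 20.8 TPM in OX res and 11.5, 8.93 and 11.1 TPM in 5-FU res, against 3.09, 3.73 and 3.77 TPM in WT, so that it rose by 2.17 and 1.34 (limma, adjusted p = 2.5e-09 and 3.8e-07). NR3C1 also rose in SW480 OX res, and it was not called in SW480 5-FU res. The glucocorticoid list holds NR3C1 itself and 7 responsive genes, of which 6 were tested in HCT116 and in SW480. Without NR3C1, 4 of these 6 rose and 1 fell in HCT116 OX res, 1 rose and 1 fell in HCT116 5-FU res, 3 rose in SW480 OX res and 3 rose in SW480 5-FU res. Their median was 1.51 for HCT116 OX res (0.60 over all genes tested), -0.08 for HCT116 5-FU res (0.18), 0.98 for SW480 OX res (0.36) and 1.11 for SW480 5-FU res (0.44). Of all genes, 28.5% rose and 4.83% fell in HCT116 OX res, 11.6% rose and 3.82% fell in HCT116 5-FU res, and 13.7% rose in SW480 OX res and 18.3% for SW480 5-FU res. In DLD-1 none of the 6 tested was called by limma, with 4 genes in OX res and 5 in 5-FU res at an unadjusted p under 0.05. At an adjusted p under 0.05 there were 3 and 5. FKBP5, a chaperone and standard readout of the receptor, fell in HCT116 OX res by -1.66 ± 0.11 (adjusted p = 3.5e-08). SGK1, a kinase, rose in SW480 5-FU res by 3.98 ± 0.09, in SW480 OX res by 2.36 ± 0.09 and in HCT116 OX res by 1.93 ± 0.14. KLF9, a transcription factor, rose in both resistant groups of HCT116 and SW480, by 1.53 to 1.70. Among these genes, the calls on NR3C1 in HCT116 5-FU res and on KLF9 in HCT116 OX res and SW480 OX res were lost in at least 1 alternative.

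Of 9 genes that flank the cluster, 6 were tested in HCT116 and DLD-1 and 7 in SW480. HERPUD1, a stress gene of the endoplasmic reticulum, rose in HCT116 OX res (1.54), SW480 OX res (1.14), SW480 5-FU res (1.32) and DLD-1 5-FU res (2.36), and BBS2, a cilium gene, rose in SW480 5-FU res (1.04), and of these calls the one on HERPUD1 in DLD-1 alone held in every alternative run. No other flanking gene was called in the 6 comparisons with WT, and none fell. These were 1 of 6 tested genes for HCT116 OX res (28.5% of all genes rose there), 1 of 7 for SW480 OX res (13.7%), 2 of 7 for SW480 5-FU res (18.3%) and 1 of 6 for DLD-1 5-FU res (2.12%). In HCT116 5-FU res and DLD-1 OX res, 3 and 4 of the flanking genes had an unadjusted p under 0.05, and as many had an adjusted p under 0.05. The medians of the list were 0.55 for HCT116 OX res and 0.51 for SW480 5-FU res, the 2 groups with most metallothionein genes called lower, against 0.60 and 0.44 over all genes.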

How the data were processed

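mRNA was measured in 27 libraries, 3 for each of 9 groups, taken from the sample titles. Per the labels and the study's methods, stranded mRNA libraries were trimmed with Trimmomatic, aligned to hg19 with TopHat2 2.1.1 (Bowtie2 2.2.8, SAMtools 0.1.18) and quantified with Cuffdiff 2.2.1 by the submitters' processing notes. The authors deposited FPKM for 26255 symbols per library without a fixed sum, and how reads shared between metallothionein copies were counted is not given in the sources used here. Read numbers are not known here, so precision rests on the spread between libraries.

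FPKM were divided by the library sum to give TPM and taken as log2(TPM + 1). limma 3.58.1 in R 4.3.3 (lmFit, eBayes with trend) was fitted to the 9 libraries of each line, keeping genes that reached 1 TPM in 3 or more libraries, and to all 27 libraries for comparisons between lines. The fit was tested on simulated data. Python 3.11.15 with pandas 2.3.3 and matplotlib 3.10.9 made summaries and figures. Positions and transcripts came from GENCODE v44 lifted to GRCh37, and 22422 symbols matched directly, 1358 by an older symbol and 2475 not at all. RefSeq promoters of 3 of the 7 genes were used.

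The members, the gene lists and the tests were chosen with earlier results of these data known. Named genes are all 7 members, MTF1 and SLC30A1, and the genes of each list with the largest called changes against WT, at most 4 a list. Alternatives were a pseudocount of 0.1, no filter, FPKM as deposited, a mean TPM from 5 up, median-of-ratios scaling, quantile normalization, removal of the transcript length trend, eBayes without trend, a replicate block, fits of the compared groups alone, and leaving out each library. The groups share replicate numbers in their titles. Same-numbered libraries deviated together, with every pair's correlation over 0.1, in 3 of the 9 comparisons within a line (0.13 to 0.37), which are HCT116 OX res and 5-FU res against WT and SW480 OX res against WT. In SW480 5-FU res against WT, same-numbered pairs ran from -0.33 to -0.03. Differently numbered libraries reached 0.37 between the HCT116 resistant groups and 0.23 in SW480 OX res against WT. They reached 0.32 in SW480 5-FU res against WT and 0.25 between the SW480 resistant groups. A replicate block by number does not cover such pairs.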

Additional observations from a re-analysis of the deposited data

Results flagged for a closer look

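The contrast of resistant with WT cells differed between lines for MT2A, MT1E, MT1X and MT1F in 10 interaction tests with limma over all 27 libraries. These are the called tests alone, while all 4 genes were tested for both drugs and every pair of lines. In the comparisons below, in the order given, 5.56%, 3.50%, 7.13% and 6.58% of all genes were called in the same direction. For 5-FU res against WT, HCT116 minus SW480 was 1.97 ± 0.10 for MT2A (SE, adjusted p = 1.2e-13) and 1.59 ± 0.08 for MT1E (adjusted p = 1.6e-13). SW480 minus DLD-1 was -2.02 ± 0.10 for MT2A (adjusted p = 7.9e-14) and -1.2 ± 0.08 for MT1E (adjusted p = 2e-11). For OX res against WT, HCT116 minus SW480 was -1.7 ± 0.08 for MT1E (adjusted p = 4.6e-14), -1.35 ± 0.08 for MT1X (adjusted p = 9.3e-13) and -1.62 ± 0.31 for MT1F (adjusted p = 1.1e-04). HCT116 minus DLD-1 was -2.46 ± 0.08 for MT1E (adjusted p = 4.6e-17), -1.59 ± 0.10 for MT2A (adjusted p = 3.5e-12) and -1.3 ± 0.31 for MT1F (adjusted p = 8.3e-04). With quantile normalization this MT2A value came to -0.92, short of the fold threshold. Line and library set cannot be told apart in the differences that involve DLD-1.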

How the results depend on the processing

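Depth is unknown, so low values such as those of MT1F and MT1G cannot be weighed by counts. Quantile normalization turned MT1E in HCT116 5-FU res to 0.0513, MT2A in HCT116 OX res to 0.0891 and MT1F in SW480 OX res to -0.0251, and in the 5-FU difference of HCT116 minus DLD-1 it turned MT2A to 0.0058 and MT1X to 0.24 (0.0013 with a pseudocount of 0.1). Removing the length trend turned MT1E in HCT116 5-FU res to 0.0286 and MT1X in WT, HCT116 minus SW480, to 0.0264. In SW480 OX res, MT2A and MT1F turned to -0.29 and -0.22 with FPKM as deposited and to -0.30 and -0.24 with median-of-ratios scaling. The log2 fold of the MT2A to MT1E ratio under quantile normalization was 1.76 in HCT116 OX res, 0.51 in HCT116 5-FU res, 0.56 in SW480 OX res, 0.88 for SW480 5-FU res and 0.39 in DLD-1 OX res, and 0.69 in HCT116 5-FU res with the length trend removed.

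With FPKM as deposited or median-of-ratios scaling, 4 members were called in HCT116 OX res, in WT HCT116 minus DLD-1, in WT SW480 minus DLD-1 and in the 5-FU difference of SW480 minus DLD-1, 2 in the OX difference of SW480 minus DLD-1 and 0 in DLD-1 OX res, where removing the length trend also left 0. The background moved too. In HCT116 OX res, 1512 (FPKM) and 1857 (median of ratios) of 14010 genes were called lower, against 676 in TPM. In the 5-FU difference of SW480 minus DLD-1, 1114 and 1259 of 15801 genes were called lower, against 553. In its OX difference these numbers were 832 and 954, against 545. In DLD-1 OX res, 191 and 282 of 13467 genes were called higher, against 363. In WT HCT116 minus SW480, 0 members were called with quantile normalization or the length trend removed. For the comparisons of WT cells, the share of all genes called under these settings is not given here. Those member counts therefore have no background beside them. In TPM, 9.68% of all genes were called higher in HCT116 and 10.9% in SW480 than in DLD-1, and 12.6% lower in HCT116 than in SW480.

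Over all genes, calls against WT came to 1353 in HCT116 5-FU res (length trend removed, against 2156), to 2804 (FPKM), 2600 (quantile) and 2741 (length) in HCT116 OX res against 4667, to 1859 (FPKM), 1865 (quantile) and 1891 (length) in SW480 5-FU res against 2976, and to 3181 (pseudocount of 0.1), 1098 (FPKM), 1387 (median of ratios), 1196 (quantile) and 945 (length) in SW480 OX res against 2101. They came to 856 (pseudocount of 0.1) in DLD-1 5-FU res against 523, and to 734 (pseudocount of 0.1), 302 (mean TPM of 5 or more) and 295 (FPKM) in DLD-1 OX res against 486. Between resistant groups they came to 1021 in SW480 (mean TPM of 5 or more, against 1558) and 759 in DLD-1 (FPKM, against 1148). With median-of-ratios scaling the share of calls that were higher was 43.4% in HCT116 OX res (85.5% in TPM), 48.2% in HCT116 5-FU res (75.2%), 49.2% between the HCT116 resistant groups (76.9%), 56.3% in SW480 OX res (91.9%) and 50.5% in SW480 5-FU res (86.6%). It was 62.0% in DLD-1 OX res with quantile normalization (74.7%) and 53.2% between the DLD-1 resistant groups with the length trend removed (70.0%). The cause of these shifts was not tested.

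Leaving out 1 library gave 0 to 1 members called in DLD-1 OX res (0 without its second library) and in WT HCT116 minus SW480 (0 without the first HCT116 WT library). It gave MT1F values of -0.26 to 0.0022 in DLD-1 5-FU res and -0.10 to 0.0545 between the DLD-1 resistant groups, and in the 5-FU difference of HCT116 minus DLD-1 values of -0.0586 to 0.0478 for MT1X and -0.12 to 0.0166 for MT2A. MT1F ran from -0.27 (without the third WT library) to -0.01 (without the first) in DLD-1 OX res. In WT HCT116 minus SW480, MT2A ran from -0.24 to -0.07 and MT1X from -0.12 to -0.03. MT1F ran from 0.06 to 0.59 in the 5-FU difference of HCT116 minus SW480 and from -0.69 to -0.15 in that of HCT116 minus DLD-1. MT1F also passed the fold threshold between the HCT116 resistant groups without the third 5-FU res library (-1.16) or the first OX res library (-1.13), and MT1E in WT SW480 minus DLD-1 without the first SW480 WT library (1.02). A replicate block changed no member call and left 4667 genes called in HCT116 OX res, 2160 in HCT116 5-FU res and 2108 in SW480 OX res.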
